A study of Mus musculus with 8 samples.

Results

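Genes of antigen presentation by class II major histocompatibility complex (MHC) molecules were followed in mouse spleen natural killer (NK) cells with and without a ChAT-eGFP reporter signal. The 10 genes were chosen by symbol: H2-Aa, H2-Ab1, H2-Eb1, Cd74, H2-DMa, H2-DMb2, H2-Oa, H2-Ob, Ciita and Cd86. Their probes were found through the RefSeq accession that the array lists for each probe. All 10 were present among the 20284 genes named on the array, through 12 probes, since H2-Ab1 and H2-Ob have 2 each. All 12 probes were well above background on all 8 arrays, so none was lost to the filter on dim probes.

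The reporter places green fluorescent protein under the control of Chat, which encodes choline acetyltransferase and so the step that forms acetylcholine. Spleen NK cells were enriched with magnetic beads and then sorted on the reporter into 4 ChAT_positive and 4 ChAT_negative pools, each from 2 to 4 mice. No treatment separates the groups, and strain, age and sex are not given in the sources used here. Each pool was read on 1 one-colour Agilent array, and whether pools shared mice is not given, so the p-values reflect only how these 8 samples scatter, and some of that scatter may be technical.

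A class II molecule is a pair of an alpha and a beta chain that shows peptides from the endosomal pathway to CD4+ T cells. The invariant chain, encoded by Cd74, escorts new class II molecules and leaves a fragment in their groove. H2-M, made of H2-DMa and H2-DMb chains, exchanges that fragment for antigenic peptides, and H2-O, made of H2-Oa and H2-Ob, holds H2-M back and is best known from B cells. Ciita is the coactivator that most of these genes share, and in the mouse B cells, dendritic cells and macrophages are the usual presenting cells.

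The promoters of class II genes carry a conserved module, in which an X box binds the RFX complex and a Y box binds NF-Y, and Ciita docks on the factors bound there. RefSeq promoter windows (GRCm38.p6, 250 bases before to 50 bases after a gene's start) were matched for 6 of the 10 genes. The X box core GCAAC and the Y box TGATTGG were searched on both strands. The stretches around the Y box are shown because H2-Aa, H2-Eb1, H2-DMb2, H2-Oa and H2-Ob, whose means were all higher in ChAT_positive pools, can be compared there letter by letter. Capitals mark the motif letters found, and each stretch reads towards the gene.
H2-Aa, chr17:34287847-34287933, minus strand: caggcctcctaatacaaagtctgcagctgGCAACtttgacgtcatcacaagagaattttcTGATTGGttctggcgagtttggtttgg
H2-Eb1, chr17:34305746-34305832, plus strand: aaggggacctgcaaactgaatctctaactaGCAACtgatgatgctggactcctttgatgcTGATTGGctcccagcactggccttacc
H2-DMb2, chr17:34145097-34145183, plus strand: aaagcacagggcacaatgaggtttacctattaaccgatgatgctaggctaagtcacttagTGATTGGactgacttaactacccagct
H2-Oa, chr17:34092274-34092360, plus strand: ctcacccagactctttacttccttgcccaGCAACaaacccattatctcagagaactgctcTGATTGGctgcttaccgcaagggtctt
H2-Ob, chr17:34238786-34238872, plus strand: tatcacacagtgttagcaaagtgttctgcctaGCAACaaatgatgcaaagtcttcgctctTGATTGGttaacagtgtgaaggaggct

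The Y box began 50 bases before the start of H2-Aa, 61 before H2-Eb1, 92 before H2-DMb2, 45 before H2-Oa and 59 before H2-Ob. GCAAC lay upstream of it in 4 of these 5, at a gap of 26 bases in H2-Aa, 25 in H2-Eb1, 26 in H2-Oa and 23 in H2-Ob, and neither window of H2-DMa held TGATTGG. Of all 32817 promoter windows, 35.2% held GCAAC, 7.8% held TGATTGG, and 0.353% held both on 1 strand in this order with at most 40 bases between them. A match describes the letters only.

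Of the 10 genes, 9 had a higher mean in ChAT_positive pools and Ciita had a lower one. Cd86, H2-DMa and H2-Oa rose by limma (Benjamini-Hochberg adjusted p under 0.05 over 13607 genes), and 0 of the 10 fell. These 3 of 10 compare with 2.81% of all genes called higher, and 5.96% called in either direction. A fold change above 0, as in 9 of the 10, was found for 53.1% of all genes. At an unadjusted p under 0.05, 7 of the 10 were higher and 0 lower, where 12.9% of all genes were higher. The median log2 fold change was 0.52 over the 10 genes and 0.026 over all genes tested, with fold changes given throughout as ChAT_positive minus ChAT_negative. None of the 3 calls held under all 8 removals of a single array, where 0.691% to 2.25% of all genes were called higher. The ChAT_positive arrays shared 1 slide and 1 scan and the ChAT_negative arrays another, so slide and group cannot be told apart.

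**Figure D1:**
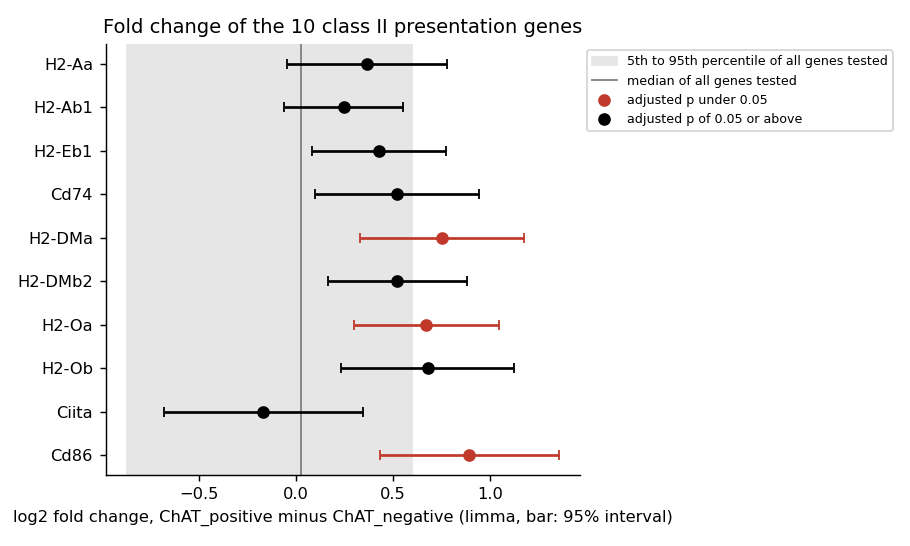
Log2 fold change (x axis, limma, bars: 95% interval) of each of the 10 genes, with the 5th to 95th percentile of all 13607 genes in grey. Cd86, H2-DMa and H2-Oa, in red, passed an adjusted p of 0.05, and Ciita alone lies below 0.

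Values are log2 of the processed spot intensity less the array's own 75th percentile over probes, a level relative to that array, and levels of different probes are not set against each other. Chat itself, the gene the sort is based on, had 2.15 times the signal in ChAT_positive pools (95% interval 1.58 to 2.94, adjusted p = 0.0201), and its probe was well above background in all pools of both groups. Between 49.5% and 62.7% of probes per array were well above background, and 0 probes were saturated. Of 10 spike-in probes, 9 were dimmest on array 3 among ChAT_positive pools and 10 on array 3 among ChAT_negative pools. Without both of them, 0 of the 10 genes were called by limma, beside 0.154% of all genes called higher, and 4 were at an unadjusted p under 0.05.

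The chains of the class II molecules themselves gave the 3 smallest of the 9 positive fold changes. H2-Aa, the alpha chain of I-A, had log2 signals of 4.37, 4.66, 4.58 and 4.10 in ChAT_positive pools 1 to 4, against 4.47, 3.95, 3.80 and 4.03 in ChAT_negative pools 1 to 4. ChAT_negative pool 1 lay among the ChAT_positive pools, and ChAT_positive pool 4 lay among the ChAT_negative ones. The log2 fold change was 0.37 (95% interval -0.046 to 0.78), with an adjusted p of 0.252 by limma.

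H2-Ab1, the beta chain of I-A, gave 4.56, 4.69, 4.80 and 4.44 in ChAT_positive pools and 4.57, 4.40, 4.14 and 4.39 in ChAT_negative pools by its brighter probe. Its log2 fold change was 0.25 (95% interval -0.060 to 0.55, adjusted p = 0.298 by limma), and the other probe, fitted among all probes, gave 0.22. That probe had 3.97, 4.33, 4.32 and 3.95 in ChAT_positive pools and 4.23, 3.94, 3.61 and 3.93 in ChAT_negative pools. The groups overlapped for both probes, again through ChAT_negative pool 1.

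H2-Eb1, the beta chain of I-E, had 4.34, 4.47, 4.58 and 4.14 in ChAT_positive pools and 4.25, 3.78, 3.79 and 4.00 in ChAT_negative pools. Here ChAT_negative pool 1 lay above ChAT_positive pool 4 alone, and the difference of 0.43 (SE 0.15) had an adjusted p of 0.128 by limma. For the 3 chains together, 0 were called and 1, H2-Eb1, was at an unadjusted p under 0.05.

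Cd74, the gene of the invariant chain, had 5.15, 5.29, 5.45 and 4.83 in ChAT_positive pools, against 4.94, 4.56, 4.30 and 4.85 in ChAT_negative pools, so that ChAT_positive pool 4 was below 2 of the ChAT_negative pools. The difference of 0.52 (95% interval 0.099 to 0.94) had an adjusted p of 0.13 by limma.

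Of the 4 genes of peptide exchange, limma called 2 and placed all 4 at an unadjusted p under 0.05. Of all genes, 2.81% were called higher and 12.9% were higher at that unadjusted p. H2-DMa, the alpha chain of H2-M, had 4.13, 4.33, 4.39 and 3.72 in ChAT_positive pools and 3.71, 3.23, 3.16 and 3.45 in ChAT_negative pools. The groups did not overlap, but ChAT_positive pool 4 exceeded ChAT_negative pool 1 by 0.0056. H2-DMa rose 1.68-fold (95% interval 1.26 to 2.26), with a limma adjusted p of 0.0499 that lies at the threshold. Removing ChAT_positive replicate 4 (adjusted p = 0.0388) or ChAT_negative replicate 1 (0.042) kept the call by limma, and removing any of the other 6 arrays ended it, with the highest value (0.137) without ChAT_positive replicate 3.

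H2-DMb2, a beta chain of H2-M, had 3.00, 3.08, 3.18 and 2.76 in ChAT_positive pools and 2.81, 2.25, 2.31 and 2.55 in ChAT_negative pools. Only ChAT_negative pool 1 reached the ChAT_positive range, and the difference of 0.52 (SE 0.16) was at 0.0848 after adjustment by limma. Its close paralog H2-DMb1 gave a difference of 0.51 (adjusted p = 0.0815 by limma), and the probes of the pair may share signal.

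H2-Oa, the alpha chain of H2-O, had 2.63, 2.50, 2.93 and 2.39 in ChAT_positive pools and 2.02, 1.69, 1.81 and 2.23 in ChAT_negative pools. Every ChAT_positive pool was above every ChAT_negative pool, by at least 0.16. H2-Oa rose 1.59-fold (95% interval 1.23 to 2.07, limma adjusted p = 0.049), and no removal of 1 array kept the call (adjusted p from 0.0621 without ChAT_positive replicate 4 to 0.125 without ChAT_positive replicate 3).

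H2-Ob, the beta chain of H2-O, was read by 2 probes. The brighter one had 2.63, 2.60, 2.75 and 2.14 in ChAT_positive pools, against 2.08, 1.40, 1.82 and 2.09 in ChAT_negative pools, a 1.60-fold difference (95% interval 1.18 to 2.18, limma adjusted p = 0.0754). The dimmer probe had 1.88, 1.57, 2.06 and 1.66 in ChAT_positive pools and 1.07, 0.50, 0.77 and 1.12 in ChAT_negative pools. The groups did not overlap on either probe, and the dimmer one left a gap of 0.45 between them.

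Fitted over all 32086 probes that passed the filter, that dimmer H2-Ob probe was the 1 of 12 called by limma (1.90-fold, 95% interval 1.43 to 2.54, adjusted p = 0.0368), beside 1.46% of all probes called higher. No removal of 1 array kept it. The calls per gene and per probe thus named different features of H2-O.

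Ciita, the coactivator, was the exception in direction. It had 3.35, 3.61, 3.52 and 3.50 in ChAT_positive pools, against 3.90, 4.23, 3.17 and 3.33 in ChAT_negative pools. The ChAT_positive pools lay close together inside the wider ChAT_negative range, where pools 1 and 2 were high and pools 3 and 4 low. The log2 fold change was -0.17 (95% interval -0.68 to 0.34, adjusted p = 0.687 by limma), and its sign turned without ChAT_negative replicate 2 (0.022) and with arrays scaled on their medians (0.050), a scaling that moves every gene up by the same amount and the median of all genes to 0.24. The interval allows a difference of either sign.

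Cd86, a costimulatory ligand that presenting cells show to CD28 on T cells, had the largest fold change of the 10. It had 2.75, 2.82, 2.59 and 2.35 in ChAT_positive pools, against 2.09, 2.04, 1.48 and 1.32 in ChAT_negative pools. The groups did not overlap, with a gap of 0.26. Cd86 rose 1.86-fold (95% interval 1.35 to 2.56, limma adjusted p = 0.0387). Removing ChAT_negative replicate 1 (0.0351) or 2 (0.0477) kept the call, and removing any of the other 6 arrays ended it, with the highest value (0.0994) without ChAT_positive replicate 3.

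**Figure D2:**
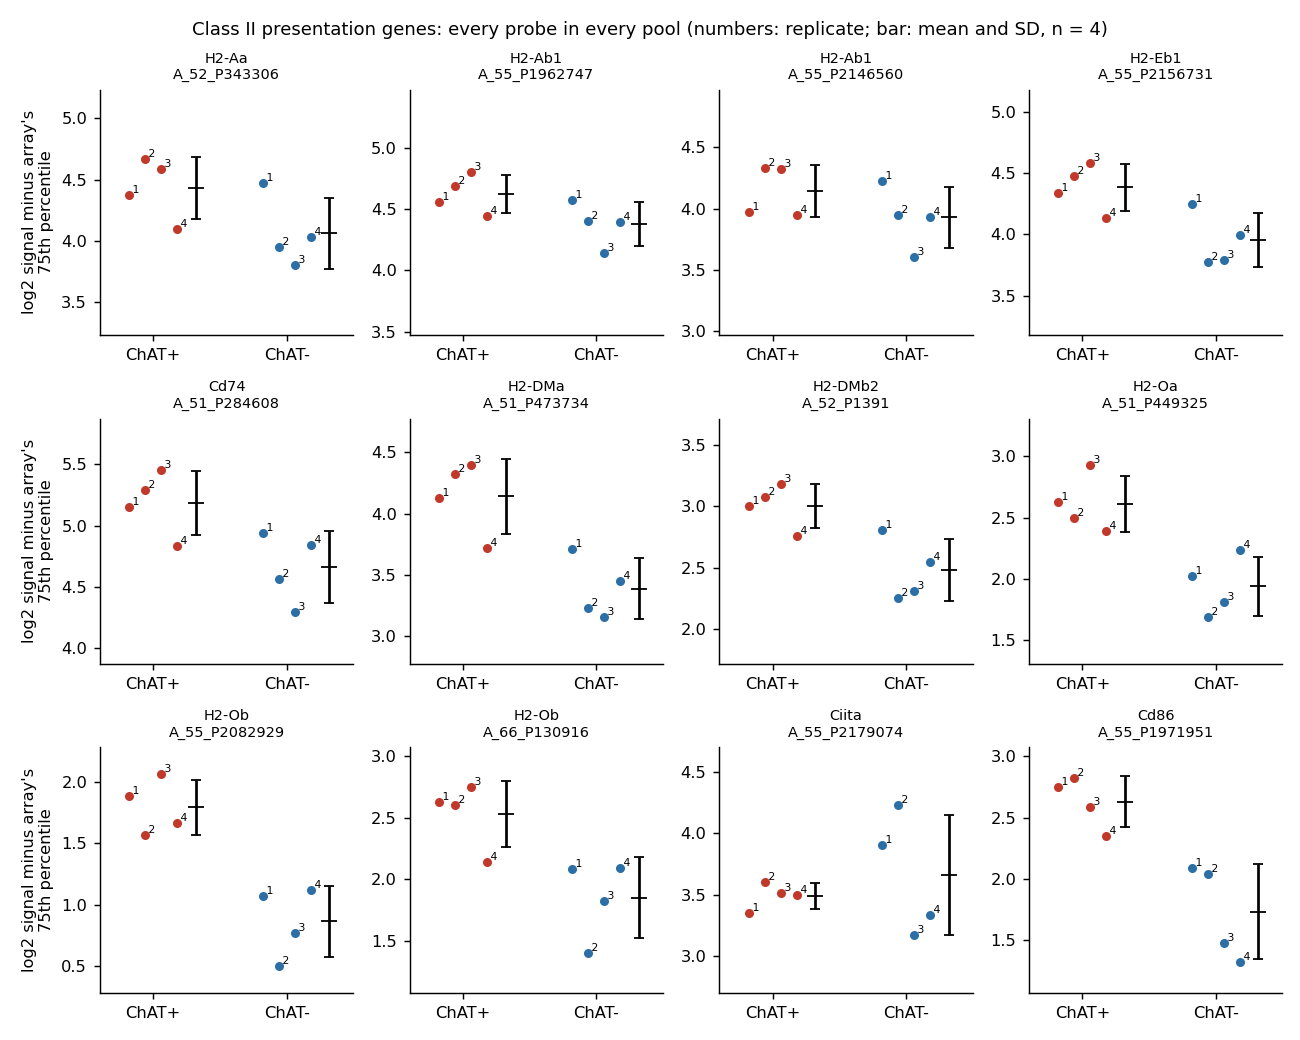
Log2 signal relative to the array's 75th percentile (y axis) for the 12 probes in each ChAT_positive (red) and ChAT_negative (blue) pool, numbered by replicate, with mean and SD (n = 4). Groups are apart for H2-DMa, H2-Oa, both H2-Ob probes and Cd86, and overlap for the other 7 probes.

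In all, the groups did not overlap for 4 of the 10 genes, each higher in ChAT_positive pools, beside 9.37% of all genes tested, and for 0 in the lower direction, beside 6.14%. Within the ChAT_positive group, pool 3 was highest for 7 of the 10 genes (31.6% of all genes) and pool 4 lowest for 9 (36.5% of all genes). Within the ChAT_negative group, pool 1 was highest for 7 of the 10 genes, where it was highest for 27.8% of all genes. The 75th percentile used for scaling was log2 11.21, 10.78, 10.85 and 11.36 in ChAT_positive pools 1 to 4 and 11.06, 11.03, 11.61 and 11.04 in ChAT_negative pools 1 to 4. It was thus highest in ChAT_positive pool 4 and in ChAT_negative pool 3, which was lowest of its group for 5 of the 10 genes (34.4% of all genes), and its part in the result was not tested. The median SD over the 10 genes was 0.22 in ChAT_positive and 0.27 in ChAT_negative pools, against 0.22 and 0.23 over all genes.

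**Figure D3:**
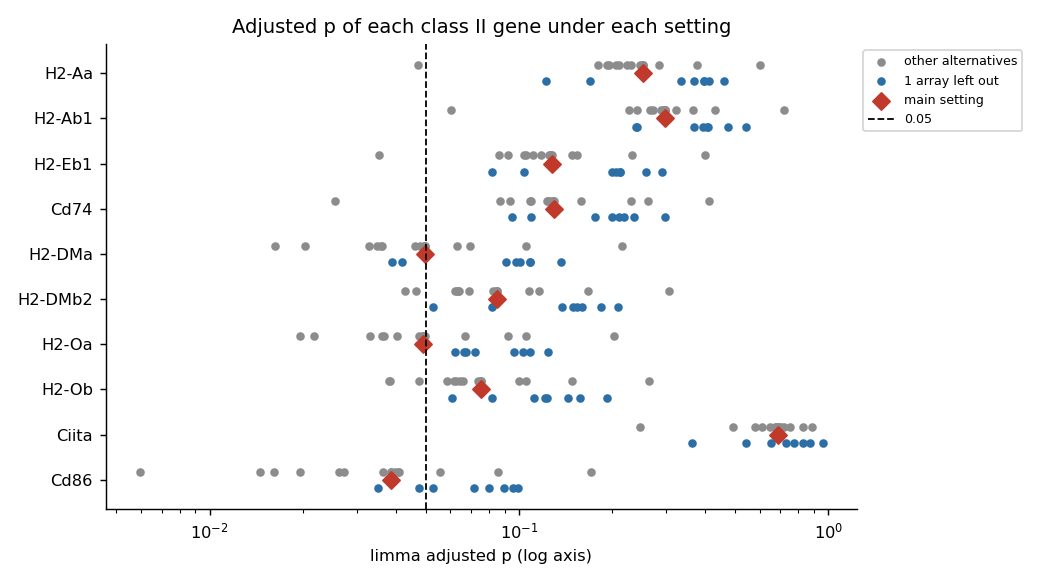
Limma adjusted p (x axis, log scale) of each of the 10 genes with all arrays (red), with 1 array left out (blue) and under the other alternatives (grey), with 0.05 dashed. H2-DMa and H2-Oa sit at the line, and H2-Ab1 and Ciita stay right of it under every setting shown.

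The 2 functional groups were set side by side in each pool, with every gene centred on its own mean over the 8 arrays. The 4 peptide exchange genes averaged 0.35, 0.38, 0.57 and 0.0098 in ChAT_positive pools, against -0.085, -0.60, -0.47 and -0.16 in ChAT_negative pools. The class II core, formed by H2-Aa, H2-Ab1, H2-Eb1 and Cd74, averaged 0.15, 0.32, 0.40 and -0.082 in ChAT_positive pools, against 0.099, -0.29, -0.45 and -0.14 in ChAT_negative pools. The average of the exchange genes was apart between the groups and that of the core genes was not. Among the single exchange genes, H2-DMb2 overlapped. Exchange minus core was above 0 in all 4 ChAT_positive pools (0.061 to 0.21) and below 0 in all 4 ChAT_negative pools (-0.32 to -0.015), given here as a description.

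Other genes of the pathway moved in both directions. Of 34 tested, 2 rose, Ifngr2 among them, and 2 fell (Prdm1 and Marchf8), beside 2.81% of all genes called higher and 3.15% called lower, with a median log2 fold change of 0.22. Among 12 regulators of Ciita, Ifngr2, a chain of the interferon gamma receptor, had 0.69, 0.27, 0.96 and 0.88 in ChAT_positive pools, against -0.11, -0.56, -0.48 and -0.32 in ChAT_negative pools. It rose by 1.07 on the log2 scale (SE 0.18, limma adjusted p = 0.0155).

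Prdm1, which encodes a repressor that silences Ciita during plasma cell differentiation, had 0.65, 0.87, 0.062 and 0.71 in ChAT_positive pools, against 2.03, 2.25, 1.45 and 1.67 in ChAT_negative pools. Prdm1 fell by 1.28 on the log2 scale (SE 0.23, limma adjusted p = 0.0196). The groups were apart for Prdm1 and for Ifngr2, and both calls held whichever array was left out (adjusted p up to 0.0498 and 0.0488). The Ifng difference was -0.20 on the log2 scale (adjusted p = 0.508 by limma) and that of Irf1, a factor induced by interferon gamma, was 0.39 (adjusted p = 0.1).

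Marchf8, a ubiquitin ligase that sends class II molecules and CD86 to lysosomes, had 0.41, 0.51, 0.46 and 0.31 in ChAT_positive pools and 1.09, 0.92, 1.26 and 1.29 in ChAT_negative pools. Marchf8 fell by 0.72 on the log2 scale (SE 0.12, limma adjusted p = 0.0171), and the call was lost without ChAT_negative replicate 4 (0.0588). Its relative Marchf1 differed by -0.14 (adjusted p = 0.598 by limma). Among the 6 genes of costimulation and class II turnover Marchf8 was the 1 called, and Cd80, the other ligand of CD28, had 0.30 (adjusted p = 0.628 by limma).

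Of the 2 further class II chains on the array, H2-DMb1 and H2-Eb2, 0 were called by limma, 2 were higher at an unadjusted p under 0.05, and both were apart between the groups. H2-Eb2, an I-E-like beta chain, differed by 0.85 on the log2 scale (SE 0.23) at an adjusted p of 0.0624. Of 7 antigen processing genes limma called 0, while 1 higher and 2 lower passed 0.05 before adjustment. Ctss, the protease that trims the invariant chain in B cells and dendritic cells, had a difference of 0.35 (adjusted p = 0.195), and Ctsd, another endosomal protease, one of -0.46 (adjusted p = 0.126). Of 7 factors that bind class II promoters limma called 0, with 2 higher at an unadjusted p under 0.05. Nfyc, an NF-Y subunit, had 0.17 (adjusted p = 0.449) and the RFX subunit gene Rfxank 0.12 (adjusted p = 0.591).

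Markers of presenting cell types did not move as 1 block. B cell markers were well above background in all pools of both groups, and 6 of 12 tested rose and 0 fell, with a median of 0.76. The shares over all genes were 2.81% called higher and 3.15% called lower. Their mean log2 level ran from 2.17 to 2.53 in ChAT_positive and from 1.47 to 1.75 in ChAT_negative pools. Pax5, Bank1 and Ebf1, which mark the B lineage, rose by 1.31 (SE 0.15), 1.12 (SE 0.15) and 1.03 (SE 0.17) on the log2 scale, with limma adjusted p = 0.00389, 0.00671 and 0.0131. These 3 calls held under all 8 removals of a single array, while that of Blk, a B cell kinase gene, held under 3. Without both arrays numbered 3, the B cell markers called were 1 of 12, beside 0.154% of all genes called higher. In bulk samples, fewer cells of a type and less RNA per cell cannot be told apart, and the part of B cell transcripts in the class II values was not tested.

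Dendritic cell markers had a median of -0.13, with 0 of 9 tested called higher and 2 lower, beside 2.81% and 3.15% of all genes. Itgax, which encodes CD11c and is also made by NK cells, fell by 1.31 on the log2 scale (SE 0.17, limma adjusted p = 0.0065). Clec9a, a receptor of cross-presenting dendritic cells, was well above background on 0 of the 4 arrays of ChAT_positive pools and on all 4 of ChAT_negative pools. It was at least 2.16-fold lower in ChAT_positive pools, a bound set by the lowest signal well above background. Clec9a passed the filter on dim probes through the ChAT_negative arrays alone. Its limma adjusted p (0.0201, or 0.0609 without ChAT_positive replicate 3) therefore adds no support. With a filter at all 8 arrays, 1 dendritic cell marker was called. The mean level of the dendritic list was 0.34 to 0.82 in ChAT_positive and 0.83 to 1.18 in ChAT_negative pools. Of 8 tested monocyte and macrophage markers limma called 0, while 2 higher and 1 lower passed 0.05 before adjustment, with mean levels of -2.40 to -1.05 in ChAT_positive and -1.97 to -0.79 in ChAT_negative pools. Csf1r, the receptor that macrophages need, differed by -0.29 on the log2 scale (adjusted p = 0.312), and Spic, a factor of red pulp macrophages, by 1.00 (adjusted p = 0.108). The part of either list in the class II values was not tested.

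All 10 NK markers tested were well above background on all 8 arrays, while 3 of them fell, beside 3.15% of all genes called lower. Detection in a bulk pool does not establish what its cells are, since the B cell markers were detected in all pools too. Fold changes were negative for 9 of the 10, with a median of -0.51. Before adjustment 8 were lower at a limma p under 0.05, where 11.9% of all genes were. Klrb1c, which encodes NK1.1, fell by 1.60 on the log2 scale (SE 0.13, limma adjusted p = 0.00103). Of 10 markers of type 2 and type 3 innate lymphoid cells (ILC2 and ILC3), subsets of which also carry class II molecules in the mouse, 5 rose and 0 fell. Their median was 1.06, and 2.81% of all genes were called higher. Of 10 T cell markers limma called 0 (before adjustment, 1 higher and 0 lower passed 0.05), with a median of -0.06. Of 7 basophil and mast cell markers 4 fell, beside 3.15% of all genes called lower, with a median of -4.04, or -3.99 with Cd200r3 at its bound. Cd200r3, not well above background in ChAT_positive pools, passed the filter on dim probes through the ChAT_negative arrays alone. With a filter at all 8 arrays, 2 basophil and mast cell markers were called. Removing ChAT_negative replicate 4 left 1 of these 7 called, and removing replicate 3 of either group left 2. The ILC mean level was -0.10 to 0.33 in ChAT_positive and -1.30 to -1.10 in ChAT_negative pools, and the part of these cells in the class II values was not tested.

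**Figure D4:**
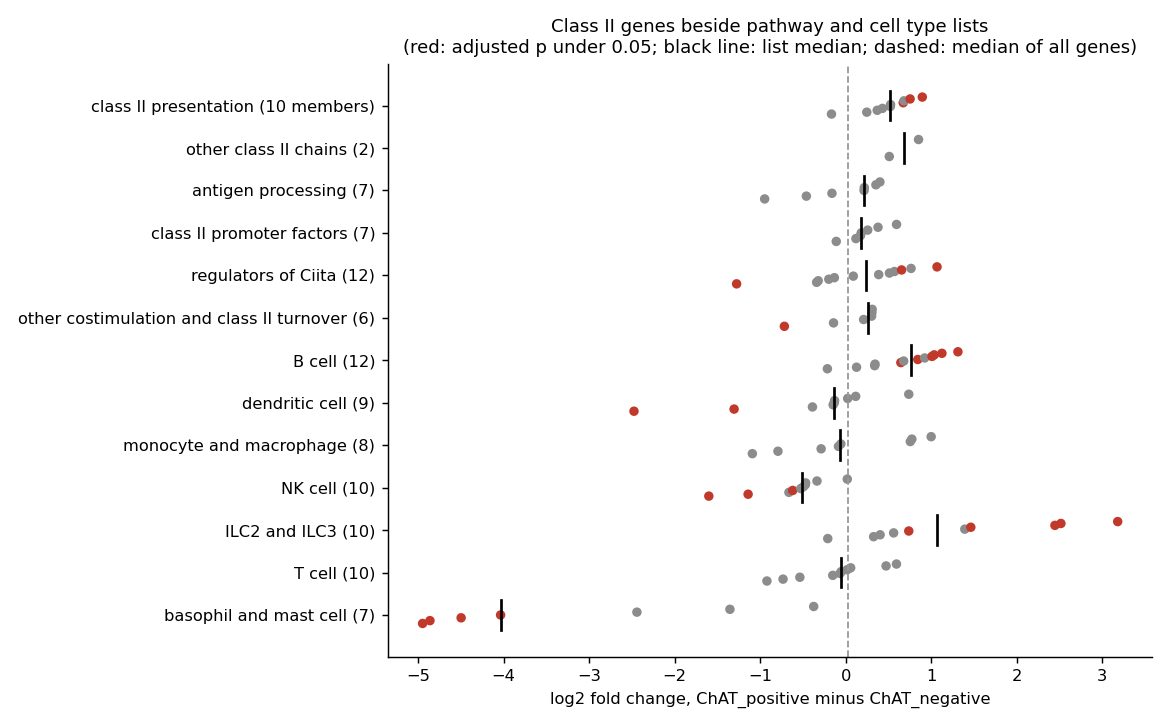
Log2 fold change (x axis) of each tested gene in the 10 class II genes and in pathway and cell type lists, with the list median as a black line and called genes in red. The B cell (0.76) and ILC (1.06) medians lie on the same side as the class II median (0.52). The dendritic cell (-0.13) and NK cell (-0.51) medians lie on the other.

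Set beside the class II core by pool, the 12 B cell markers averaged 0.28, 0.29, 0.58 and 0.21 in ChAT_positive pools, against -0.20, -0.48, -0.48 and -0.20 in ChAT_negative pools, each gene centred as above. The highest pool of the ChAT_positive group was pool 3 in both profiles. B cell markers kept the groups apart in ChAT_positive pool 4 and ChAT_negative pool 1, where the class II core did not. The root mean square difference from the core profile over the 8 arrays was 0.18 for the B cell markers and 0.44 for the dendritic cell markers. It was 0.53 for the ILC, 0.55 for the monocyte and macrophage and 0.56 for the NK markers. A list that moves more than the core lies further from it by this measure, whatever its shape. These values describe 8 arrays that share 2 slides.

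**Figure D5:**
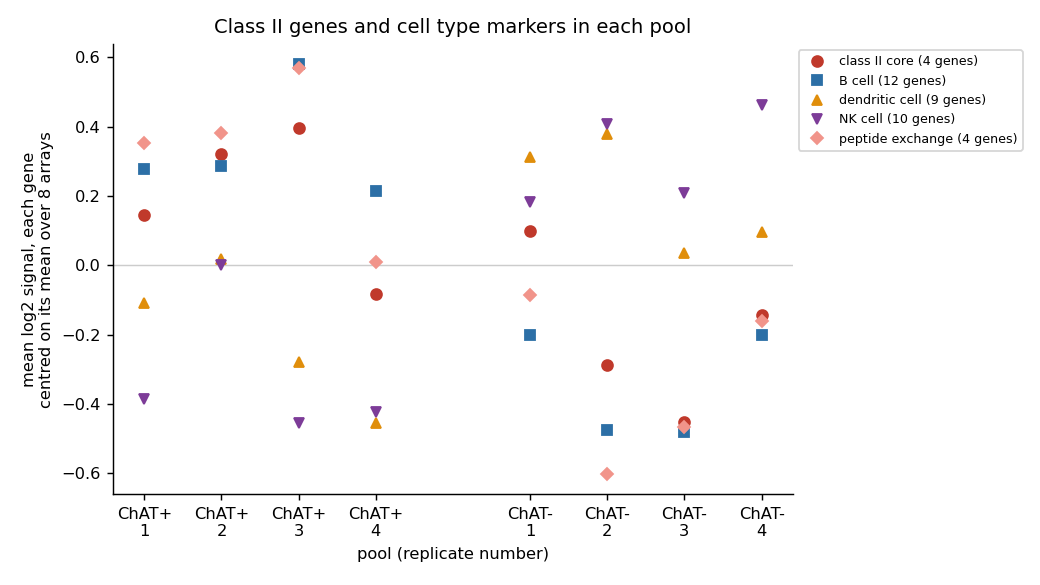
Mean log2 signal of the class II core, the peptide exchange genes and 3 cell type lists in each pool (x axis, ChAT_positive then ChAT_negative pools by replicate number), with each gene centred on its mean over 8 arrays. The class II core in ChAT_positive pool 4 (-0.082) lies below that in ChAT_negative pool 1 (0.099).

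By the same measure, a root mean square difference in log2 units over the 8 arrays, the genes outside the list nearest to the class II core were Napsa (0.056), Erp29 (0.064), Mrps34 (0.069), Fam104a (0.079), Wbp11 (0.079), Map4k1 (0.080), Thoc5 (0.080) and Ly86 (0.081). Napsa encodes an aspartic protease, Erp29 a chaperone of the endoplasmic reticulum, and Ly86 the partner of a Toll-like receptor homologue on B cells. Of the 10 genes themselves, H2-DMb2 lay at 0.094, H2-DMa at 0.19, H2-Oa at 0.22, H2-Ob at 0.23, Cd86 at 0.35 and Ciita at 0.41. None of the 8 genes named as nearest was called by limma, with log2 fold changes from 0.30 for Wbp11 to 0.43 for Map4k1. The measure counts the size of a difference as well as its shape. Fold changes near those of the core therefore follow from how these 8 genes were picked, and a gene of like shape but larger change lies further away.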

How the data were processed

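The deposited scanner files came from Agilent Feature Extraction 11.5.1.1, per the file headers. The deposited spot intensity is linear per the file headers, has had background removed array by array and carries no scaling across arrays, and flags mark spots well above background. The deposited value table of the series holds log2 values by the authors. Compared with the scanner values, a column equals the log2 intensity minus a single constant near that array's 75th percentile (the largest gap was -0.0065). Column medians were -0.72 to -0.63, with no centring per gene.

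Control spots were left out, and the spots of a probe were averaged. An outlier mark was on 1344 values, which were left out only where the probe had an unmarked spot on that array. The 75th percentile of the array's 55681 remaining probes was subtracted on the log2 scale. Of these, 26762 were named through RefSeq accessions in a table of GRCm38.p6. The array was annotated on an earlier build, so positions from RefSeq are given for the promoter windows alone, on GRCm38.p6. A probe was kept if well above background on 4 or more arrays, and the brightest probe stood for a gene. The groups were compared by the two-sided moderated test of limma 3.58.1 (R 4.3.3, lmFit with eBayes), and every probe was also fitted among all probes. Precision is limited by the number of arrays. The procedure was tested on simulated data with 200 of 13607 genes changed. It recovered 53% of 2-fold and 87% of 4-fold changes, and 7.28% of its calls were false. A gene that was not called may therefore still differ.

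The 10 genes, the pathway and marker lists and the tests were chosen with earlier results of these data known. Named in the text are all 10 genes and the 8 genes nearest in pattern. Up to 4 called genes are named per pathway list, or the 2 brightest where none passed, and up to 3 called markers per cell type likewise. Ifng, Irf1, Marchf1 and Cd80 were added after their values were seen. Blk and Chat are also named outside these rules. Some genes named by these rules are not reported here. Alternatives changed the scaling, background correction (normexp on the median spot signal), filter on dim probes, choice of probe, array weights, variance model, source table and block, and left out arrays.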

Additional observations from a re-analysis of the deposited data

How the results depend on the processing

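Of the 10 genes, quantile normalization called 7 (3.76% of all genes called higher), a trended and robust variance 5 (3.53%), and median scaling 1 (1.55%). Called were 0 when dim probes were not filtered (0.483% of all genes called higher) or with a filter at 1 of 8 arrays (1.84%). In both, 7 of the 10 were at an unadjusted p under 0.05. Without both arrays numbered 3, 0 were called (0.154% of all genes called higher), and 4 of the 10 were at an unadjusted p under 0.05. With 1 array left out, 0 to 2 genes were called, where 0.691% to 2.25% of all genes were called higher. More genes were tested under the looser filters, and 13607 in both scalings. Median scaling moved every fold change by 1 constant, and the median of all genes to 0.24.

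Called among pathway genes were 8 under quantile normalization, 2 under median scaling, 7 under normexp, 7 with a filter at all 8 arrays, 7 with array weights, 1 with no filter, 0 without both arrays numbered 3 (12 at an unadjusted p under 0.05), and 2 to 6 with 1 array left out. Called among all cell type markers were 12 with no filter, 5 without both arrays numbered 3, and 13 to 21 with 1 array left out, against 20. Called among the 12 probes were 3 under quantile normalization and 0 with any 1 array left out.

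Replicate numbers are shared between the groups, and the labels do not say whether equal numbers mark pairs. Same-numbered arrays correlated at 0.54, 0.66, 0.52 and 0.032 (numbers 1 to 4) in their deviations from the group means. The main test took no pairs because the correlation was low for number 4. Any pairing of numbers 1 to 3 is thus ignored there, and the fit with the replicate number as a block is given beside it. Of all genes, 383 were called higher and 428 lower, against 211 and 119 under median scaling, and 1002 and 1340 with the replicate block. With the replicate number as a block, 4 of the 10 genes, 2 of the 12 probes, 9 pathway genes and 35 markers were called. H2-Ob was then called (adjusted p = 0.0476 by limma), as were 4 monocyte and macrophage and 3 T cell markers, lists with 0 called without the block. The fold change of Ciita ranged from -0.33 to 0.022 with 1 array left out, where it turned without ChAT_negative replicate 2. Under the other alternatives it ranged from -0.42 under normexp to 0.050 under median scaling, where it also turned. Fold changes of the other 9 genes kept their sign under all 23 alternatives. The cause of these changes was not tested, except that fewer arrays or more genes tested are part of some settings. Rules on probes with several spots, chosen after seeing the data, left the 3 calls as they were, with H2-DMa at 0.0498 and 0.0499. That call was lost under median scaling (0.0629), a filter at 1 of 8 arrays (0.0694) and no filter (0.105), so it depends on the scaling and on which genes are tested. Signal over background did not limit these genes.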
